A study of Homo sapiens with 6 samples.

Results

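The transcripts of the human mitochondrial genome were examined in MDA-MB-453 cells, a line derived from human breast cancer. The cells had been transfected with a construct for ZNF207 overexpression (3 libraries) or with a control vector (3 libraries). ZNF207 is a zinc finger protein known to act at microtubules and with the checkpoint protein BUB3. Per the labels the 3 libraries of a group are independent biological replicates. The sources used here name neither the promoter of the construct nor the time after transfection. Members were all rows of the deposited FPKM table (fragments scaled to transcript length and to the fragments mapped in the library) whose gene name starts with MT-. There were 37 of 60569 gene names: 13 protein genes, 2 rRNA genes and 22 tRNA genes. Of these, 15 were tested, the 13 protein genes and both rRNAs, each far above the filter in all 6 libraries. The 22 tRNA rows did not pass the filter, which asked for 3 libraries at 1 FPKM or above.

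The mitochondrial genome is a small circle that encodes subunits of respiratory complexes I, III, IV and V, the RNAs of the mitochondrial ribosome and a set of tRNAs. Complexes I, III and IV pump protons while passing electrons to oxygen, and complex V, the ATP synthase, uses the proton gradient. Each strand is copied by the polymerase POLRMT into long precursors from which tRNAs are excised, and this releases the mRNAs and rRNAs that lie between them. The heavy strand is the template for 12 of the protein genes and both rRNAs, and the light strand for MT-ND6 alone among protein genes. Since one precursor holds many genes, differences in steady level between its products also involve processing and decay, with the LRPPRC-SLIRP complex known to stabilise mRNAs and the PNPT1-SUPV3L1 complex known to degrade RNA.

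Some members cannot be counted independently of a neighbour, and their sequences show why. MT-ATP8 and MT-ATP6 lie on one mRNA and share 46 bases in different reading frames, and MT-ND4L and MT-ND4 on another share 7. In the deposited table MT-ATP8, MT-ATP6 and MT-CO3 carry one common locus, as do MT-ND4L and MT-ND4. The whole MT-ATP8 gene (chrM:8366-8572, GRCh38, sense strand as annotated plus) and the last 60 bases of MT-ND4L (chrM:10707-10766) are given from GENCODE v29 transcripts, with the bases shared with the next gene in capitals.
MT-ATP8: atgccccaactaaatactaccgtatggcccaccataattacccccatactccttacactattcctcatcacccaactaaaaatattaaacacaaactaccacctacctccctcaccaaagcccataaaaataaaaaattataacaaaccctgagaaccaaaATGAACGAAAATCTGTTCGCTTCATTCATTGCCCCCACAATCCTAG
MT-ND4L, last bases: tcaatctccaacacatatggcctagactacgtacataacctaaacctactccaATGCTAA

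The nuclear genome also holds copies of mitochondrial genes. MTATP6P1 on chromosome 1 (633696 to 634376, plus strand) is the most abundant one here and matches MT-ATP6 at 671 of 681 bases. The 60 bases with most differences between them (chrM:8642-8701 and chr1:633811-633870) hold 3 of the 10, shown in capitals.
MT-ATP6: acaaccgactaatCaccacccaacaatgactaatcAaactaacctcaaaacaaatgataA
MTATP6P1: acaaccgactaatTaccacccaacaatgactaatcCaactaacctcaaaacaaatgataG

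Only 2 tRNA rows were ever above 0, MT-TV for valine (chrM:1602-1670) and MT-TM for methionine (chrM:4402-4469), both on the plus strand. They are 69 and 68 bases long and are shown whole because each of them alone moved the mitochondrial share of a library.
MT-TV: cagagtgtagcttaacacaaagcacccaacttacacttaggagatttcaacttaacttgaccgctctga
MT-TM: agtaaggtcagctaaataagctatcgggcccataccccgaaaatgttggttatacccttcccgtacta

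The overexpressed gene matched the labels: ZNF207 stood at 885, 786 and 750 FPKM in the overexpression libraries, against 69.2, 67.0 and 63.7 FPKM in the controls (log2 change 3.58, SE 0.07, limma adjusted p = 4.03e-09). Summed FPKM lay between 589360 and 610832 in the overexpression libraries and between 594853 and 612711 in the controls, and the number of reads behind them is unknown. Of 11 luminal apocrine markers 10 were tested and 0 passed, with a sum of 6978 to 7021 FPKM in the overexpression libraries and 7253 to 7608 FPKM in the controls. The smallest p-values were those of KRT19 (-0.22, limma adjusted p = 0.196) and FGFR4 (0.26, limma adjusted p = 0.293). TFAP2B was under 1 FPKM in all 6 libraries. Of 14 basal, fibroblast, endothelial and blood markers only COL1A1 was tested (limma adjusted p = 0.65). They summed to 9.44 to 11.6 FPKM in the overexpression libraries and 11.1 to 13.1 FPKM in the controls, and HBB was listed at 0 in all 6.

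Mitochondrial mRNA took a larger share of the overexpression libraries. The 13 protein genes made up 6.64%, 5.71% and 6.31% of summed FPKM in overexpression replicates 1, 2 and 3, against 5.42%, 4.36% and 5.32% in control replicates 1, 2 and 3. The groups did not overlap, and control replicate 2 was the lowest of all. The means were 6.22% ± 0.471 in the overexpression libraries and 5.03% ± 0.588 in the controls (SD, n = 3 each; exact two-sided permutation p = 0.1, the smallest that 3 against 3 libraries allow). Both rRNAs together took 0.717%, 0.682% and 0.691% in the overexpression libraries and 0.728%, 0.658% and 0.669% in the controls, so their ranges overlapped (exact permutation p = 0.6). In bulk libraries fewer cells of a type and less RNA per cell cannot be told apart, and a share of FPKM gives no number of transcripts per cell.

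Over all 37 members the share was 7.36%, 6.39% and 8.34% in the overexpression libraries and 6.90%, 5.01% and 5.99% in the controls, and these ranges overlapped. Its difference of 1.39 percentage points had an exact permutation p of 0.2. MT-TV alone gave 1.34% of overexpression replicate 3 and MT-TM alone 0.756% of control replicate 1. Without tRNA rows the share was 7.36%, 6.39% and 7.0% in the overexpression libraries and 6.15%, 5.01% and 5.99% in the controls, which did not overlap (exact permutation p = 0.1). The all-member difference was 0.908 points without overexpression replicate 3 and 0.917 points without control replicate 2.

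A share of FPKM weighs short genes as heavily as long ones. FPKM was therefore also multiplied by the mean length of each name's annotated transcripts, a rough stand-in for fragments. All members then took 4.56%, 4.01% and 4.36% of the overexpression libraries and 4.12%, 3.19% and 3.77% of the controls. The protein genes on that scale took 3.80%, 3.29% and 3.56% in the overexpression libraries, against 3.33%, 2.50% and 3.07% in the controls. The lowest overexpression library then lay just below the highest control, so the groups overlapped (exact permutation p = 0.2).

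**Figure D1:**
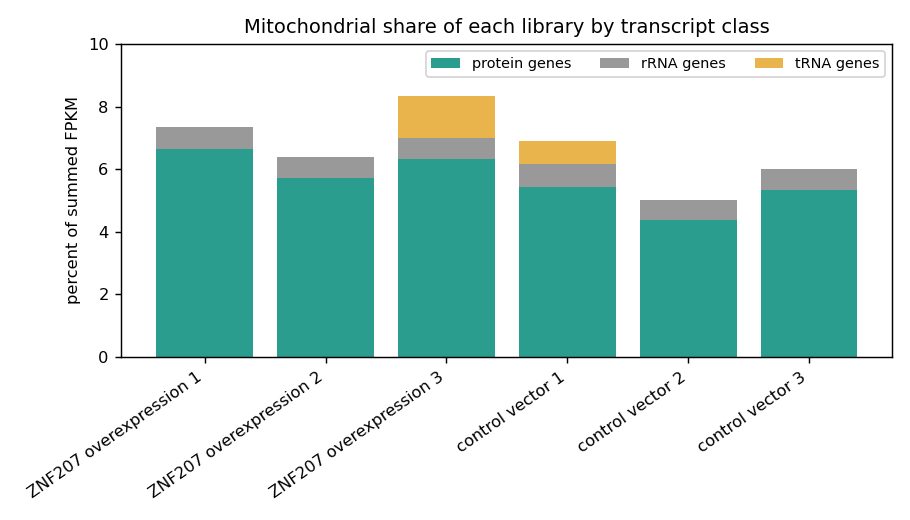
Percent of summed FPKM taken by mitochondrial protein genes, rRNA genes and tRNA genes, stacked, in each of the 6 libraries. The protein part lies between 5.71% and 6.64% in the overexpression libraries and between 4.36% and 5.42% in the controls, and a tRNA part is present in overexpression replicate 3 and control replicate 1 alone.

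All 13 mitochondrial protein genes had higher means in the overexpression libraries, by 1.09 to 1.53 times, and none passed the test over all genes. Their log2 changes ran from 0.14 to 0.63 with a median of 0.27, and the limma adjusted p-values from 0.137 to 0.839. The median over all 13185 tested genes was -0.01, and 0.212% of them were called, 0.0531% as higher and 0.159% as lower. By limma, 8 of the 13 were higher with an unadjusted p under 0.05, as were 5.08% of all tested genes. In 6 of the 13 every overexpression library lay above every control, which held for 7.61% of all tested genes. Without control replicate 2 each of the 13 changes was smaller, and those of MT-ND2 (0.27), MT-ATP6 (0.26), MT-CO2 (0.12) and MT-ND4 (0.09) moved by over 1.5 times, as did those of MT-CO1, MT-ND5 and MT-ND6. The 12 heavy-strand genes share a precursor and all 13 share the libraries, so they are not separate replicates of the comparison. The estimates stayed above 0 under each scaling tried, except with quantile scaling, where MT-ND3 had -0.02 and MT-ND4L, the highest tested row of every library, had 0.

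**Figure D2:**
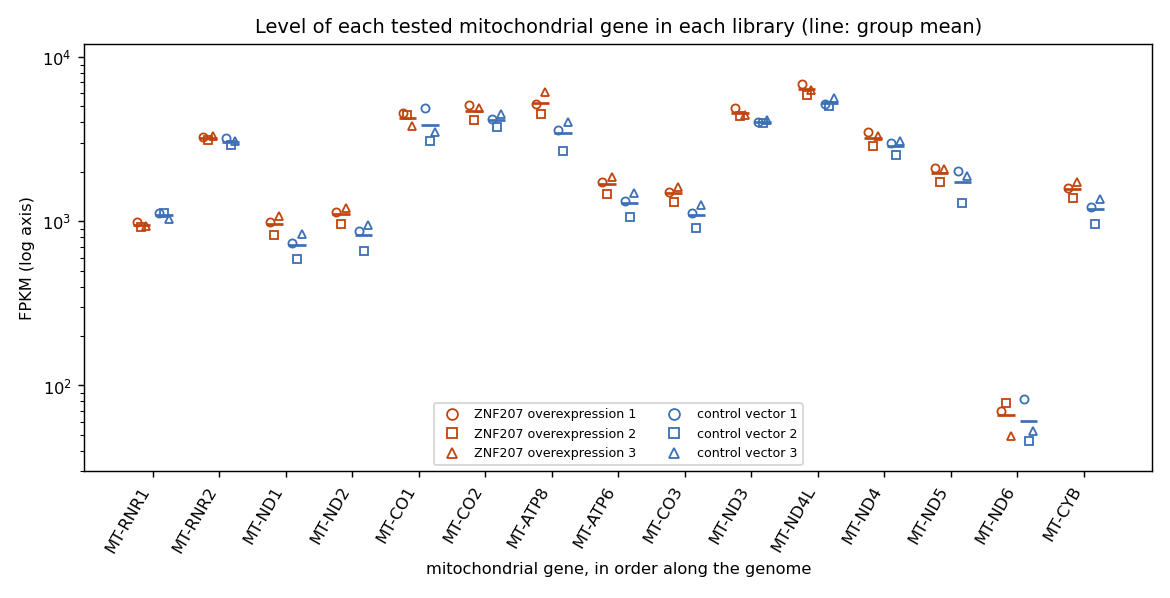
FPKM on a log axis of the 15 tested mitochondrial genes in order along the genome, with 1 marker per library and a line at each group mean. MT-ND4L is the highest tested gene and MT-ND6 by far the lowest, at 65.9 FPKM in the overexpression libraries and 60.4 FPKM in the controls.

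Several of these genes were among the highest rows of the table, while MT-ND6 ranked between 1316 and 2301 in the overexpression libraries and between 1211 and 2464 in the controls. Per length, MT-ND4L was the highest row of the table in every library but overexpression replicate 3, where MT-TV stood above it. Mitochondrial genes held 7, 7 and 8 of the 10 highest rows in the overexpression libraries and 7, 4 and 7 in the controls, with control replicate 2 lowest. MT-ATP8 ranked 2, 2 and 3 among all rows in the overexpression libraries and 8, 15 and 4 in the controls.

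Complex I takes electrons from NADH, and its membrane arm contains the 7 mitochondrial ND subunits. Their summed level was 19568, 16748 and 18493 FPKM in the overexpression libraries, against 15902, 14154 and 16490 FPKM in the controls, which did not overlap (exact permutation p = 0.1). MT-ND1, which lies where the membrane arm meets the quinone site, stood at 995, 826 and 1070 FPKM in the overexpression libraries and 735, 586 and 838 FPKM in the controls. The groups overlapped by a little, since overexpression replicate 2 lay just below control replicate 3 (log2 change 0.43, SE 0.13, limma adjusted p = 0.233).

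MT-ND2, a proton channel subunit of the same arm, stood at 1141, 960 and 1208 FPKM in the overexpression libraries and 875, 659 and 945 FPKM in the controls. These did not overlap (0.43, SE 0.13, limma adjusted p = 0.234). The short subunit gene MT-ND3 had 4889, 4393 and 4443 FPKM in the overexpression libraries, against 4045, 3979 and 4111 FPKM in the controls. Its controls were close together and below every overexpression library (0.18, SE 0.06, limma adjusted p = 0.319).

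MT-ND4L stood at 6845, 5876 and 6339 FPKM in the overexpression libraries and 5159, 5051 and 5589 FPKM in the controls, without overlap (0.27, SE 0.08, limma adjusted p = 0.204). MT-ND4, a proton channel subunit read from the same mRNA, had 3508, 2877 and 3305 FPKM in the overexpression libraries and 2992, 2534 and 3066 FPKM in the controls. Here the groups overlapped, because overexpression replicate 2 fell among the controls (0.17, SE 0.10, limma adjusted p = 0.506). MT-ND5, the distal proton channel subunit, had 2119, 1737 and 2079 FPKM in the overexpression libraries and 2013, 1300 and 1887 FPKM in the controls. Control replicate 2 stood apart from the other 5 libraries, and the log2 change of 0.21 (SE 0.15, limma adjusted p = 0.624) was 0.02 without it.

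Complex III passes electrons from quinol to cytochrome c, and cytochrome b is its only mitochondrial subunit. Its gene MT-CYB stood at 1595, 1389 and 1722 FPKM in the overexpression libraries, against 1216, 965 and 1362 FPKM in the controls. Each overexpression library lay above each control, with overexpression replicate 2 and control replicate 3 close to each other (log2 change 0.42, SE 0.12, limma adjusted p = 0.213).

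Complex IV, cytochrome c oxidase, reduces oxygen, and its catalytic core consists of the products of MT-CO1, MT-CO2 and MT-CO3. Each of these genes had a different pattern over the libraries. MT-CO3 stood at 1496, 1312 and 1623 FPKM in the overexpression libraries and 1121, 913 and 1258 FPKM in the controls, without overlap (log2 change 0.44, SE 0.12, limma adjusted p = 0.169). MT-CO2, which carries a copper centre, had 5079, 4155 and 4905 FPKM in the overexpression libraries and 4186, 3753 and 4489 FPKM in the controls, and overexpression replicate 2 fell among the controls (0.18, SE 0.09, limma adjusted p = 0.475).

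MT-CO1, which carries the site of oxygen reduction, stood at 4530, 4424 and 3815 FPKM in the overexpression libraries, against 4894, 3096 and 3506 FPKM in the controls. Its highest library was a control, replicate 1, and its lowest was control replicate 2 (0.17, SE 0.15, limma adjusted p = 0.687). The log2 change was 0.04 without control replicate 2 and 0.37 without control replicate 1.

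Complex V makes ATP, and the mitochondrial genome encodes MT-ATP6, which forms part of its proton path, and the small membrane subunit MT-ATP8. The highest log2 change of any member was that of MT-ATP8, the shortest protein gene. It stood at 5154, 4489 and 6126 FPKM in the overexpression libraries and 3588, 2667 and 4031 FPKM in the controls, without overlap (0.63, SE 0.15, limma adjusted p = 0.137). MT-ATP6 had 1736, 1464 and 1856 FPKM in the overexpression libraries and 1330, 1064 and 1479 FPKM in the controls. Overexpression replicate 2 lay just below control replicate 3 (0.39, SE 0.12, limma adjusted p = 0.238).

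Genes that lie on one mRNA were also set against each other. The ratio of MT-ATP8 to MT-ATP6, on the FPKM scale, was 2.97, 3.07 and 3.30 in the overexpression libraries and 2.70, 2.51 and 2.72 in the controls, which did not overlap (exact permutation p = 0.1). For MT-ND4L over MT-ND4 it was 1.95, 2.04 and 1.92 in the overexpression libraries, against 1.72, 1.99 and 1.82 in the controls, with overlap (exact permutation p = 0.3). These gene-to-gene ratios were chosen after the values were seen. How fragments in the shared bases were assigned is not known here, and its part in the ratios was not tested.

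**Figure D3:**
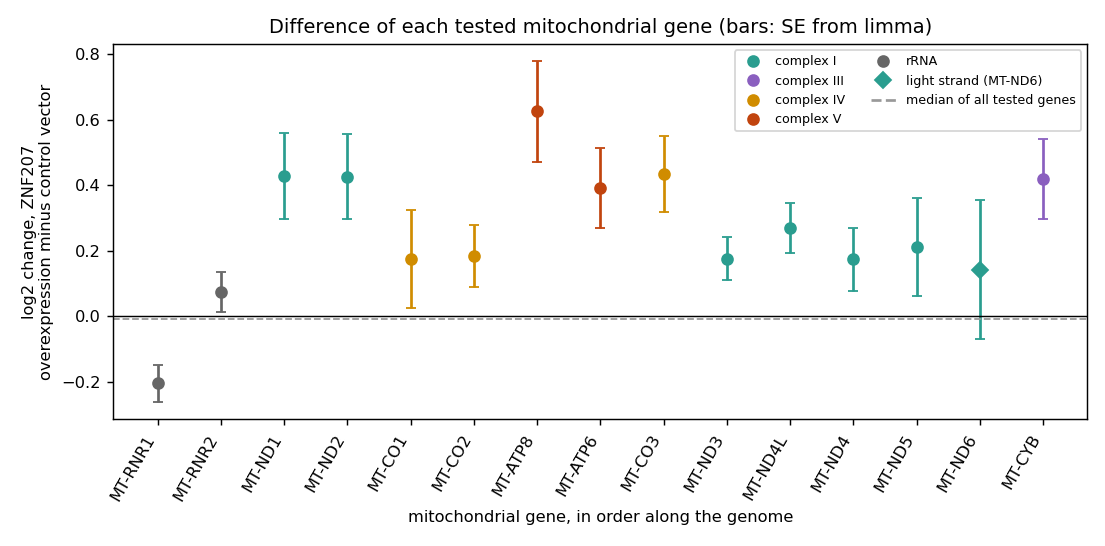
The log2 change of each tested mitochondrial gene, overexpression minus control, on the log2(FPKM + 1) scale, with bars of 1 SE from limma, coloured by complex. The 13 protein genes lie between 0.14 and 0.63, MT-RNR2 at 0.07 and MT-RNR1 at -0.21, and the dashed line marks the median of all tested genes at -0.01.

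The mitochondrial rRNAs had smaller or opposite changes beside the mRNAs of the same strand. MT-RNR1, the small-subunit rRNA (chrM:648-1601), stood at 990, 925 and 938 FPKM in the overexpression libraries, against 1124, 1130 and 1036 FPKM in the controls. It was the only tested member with a lower mean in the overexpression libraries, and its groups did not overlap, as in 10.4% of all tested genes in that direction. It was also the only member lower at an unadjusted p under 0.05, where 7.03% of all tested genes were (log2 change -0.21, SE 0.06, limma adjusted p = 0.196). The large-subunit rRNA MT-RNR2 (chrM:1671-3229) had 3235, 3128 and 3281 FPKM in the overexpression libraries and 3209, 2892 and 3065 FPKM in the controls, with overlap (0.07, SE 0.06, limma adjusted p = 0.682). The MT-RNR1 estimate was below 0 and the MT-RNR2 estimate above 0 under each of the 17 alternatives.

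Ratios within a library do not depend on how libraries are scaled. MT-RNR1 divided by the geometric mean of the 12 heavy-strand mRNAs was 0.369, 0.401 and 0.348 in the overexpression libraries and 0.518, 0.652 and 0.460 in the controls. For MT-RNR2 the ratio was 1.21, 1.36 and 1.22 in the overexpression libraries and 1.48, 1.67 and 1.36 in the controls, with overexpression replicate 2 and control replicate 3 nearly touching. Neither rRNA ratio overlapped between groups, but 45.8% of all tested genes were lower without overlap on this scale, so the direction is no feature of the rRNAs. For both rRNAs together the mean log2 ratio differed by -0.39 between overexpression and control libraries (exact permutation p = 0.1).

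The rRNAs also differed from each other. MT-RNR2 over MT-RNR1 was 3.27, 3.38 and 3.5 in the overexpression libraries, against 2.86, 2.56 and 2.96 in the controls, without overlap (exact permutation p = 0.1). That ratio was also chosen after the values were seen. A ratio shows unequal change and does not tell which member of it changed.

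**Figure D4:**
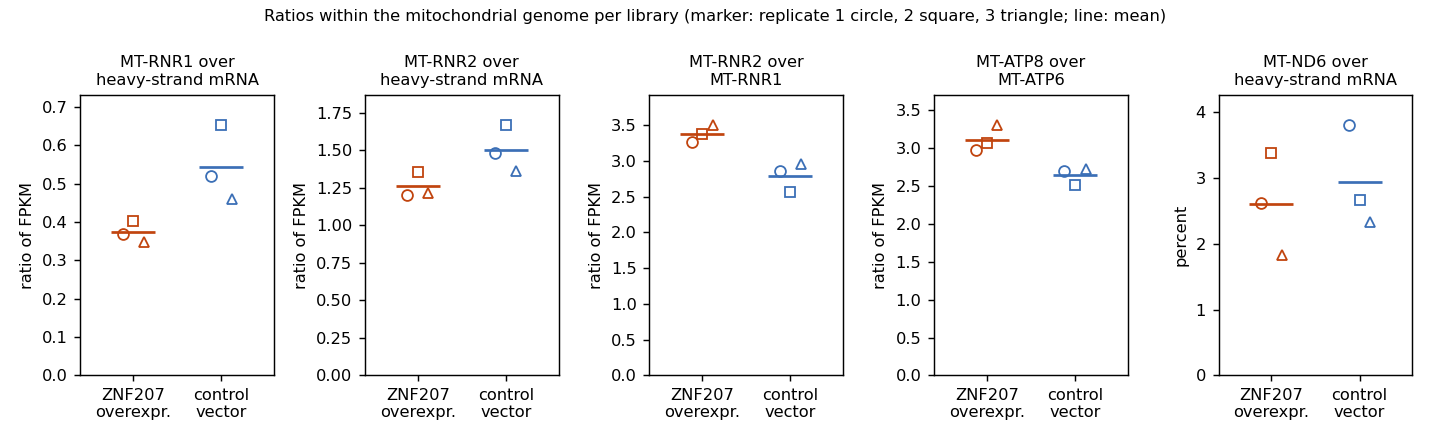
Ratios of FPKM within each library, with 1 marker per library and a line at the group mean, for MT-RNR1 and MT-RNR2 over the geometric mean of heavy-strand mRNAs, MT-RNR2 over MT-RNR1, MT-ATP8 over MT-ATP6, and MT-ND6 in percent of heavy-strand mRNA. The groups are apart in the first 4 panels, and MT-ND6 ranges from 1.83% to 3.38% in the overexpression libraries and from 2.34% to 3.80% in the controls.

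MT-ND6, a complex I subunit (chrM:14149-14673, minus strand), is the single protein gene copied from the light strand, and its mRNA is known to lack the usual poly(A) tail. It was the lowest protein gene in all 6 libraries, at 70.2, 78.0 and 49.5 FPKM in the overexpression libraries and 82.5, 46.2 and 52.6 FPKM in the controls. The groups overlapped fully (log2 change 0.14, SE 0.21, limma adjusted p = 0.839). Relative to the heavy-strand mRNAs it stood at 2.62%, 3.38% and 1.83% in the overexpression libraries and 3.80%, 2.66% and 2.34% in the controls. The mean log2 ratio differed by -0.18 (exact permutation p = 0.5), and by 0.05 without overexpression replicate 3 and 0.02 without control replicate 1. A difference between the strands was thus not detectable with these libraries.

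Each tested member was also set against the heavy-strand mRNAs as a whole. Relative to the geometric mean of the 12, MT-ATP8 was higher in every overexpression library than in every control, by a mean log2 difference of 0.30. Every overexpression library was below every control on that scale for MT-CO2 (-0.14), for MT-ND4 (-0.15) and for both rRNAs. The other 10 tested members overlapped between groups. On the same scale 0.319% of all tested genes were higher without overlap and 45.8% lower. The geometric mean itself was 1.25 times as high in the overexpression libraries, so the lower direction is no feature of the rRNAs. MT-ATP8, MT-CO2 and MT-ND4 are themselves part of that geometric mean, so these shares are no background for them. With 3 libraries per group no result about these genes is drawn from the lack of overlap.

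MT-ATP6, MT-CO3, MT-CYB, MT-ND1 and MT-ND2 had log2 changes between 0.39 and 0.44, and MT-CO1, MT-CO2, MT-ND3 and MT-ND4 had changes of 0.17 to 0.18. Replicate 2 was the lowest library of both groups for every heavy-strand mRNA except MT-CO1, whose lowest overexpression library was replicate 3. The grouping of these genes was made after their values were seen and is given without a test.

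Among the 22 tRNA rows, 20 were listed at 0 in all 6 libraries. MT-TV was at 8172 FPKM in overexpression replicate 3 and at 0 in the other 5 libraries, and it was the highest row of overexpression replicate 3. MT-TM was at 4495 FPKM in control replicate 1 and at 0 in the other 5. They took 16.0% and 10.9% of the mitochondrial FPKM of those libraries. Of the 1471 rows whose annotated transcripts are at most 80 bases long, 1466 were listed at 0 throughout, and 5 were above 0 in any library. No other row of that length came near the values of MT-TV and MT-TM. What these values count was not tested, and the tRNAs give no comparison between groups.

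Nuclear copies of mitochondrial genes carry 408 names in the table. Of these, 368 were listed at 0 in all 6 libraries and 3 were tested, all on chromosome 1, of which 0 passed the test. MTATP6P1 stood at 206, 198 and 232 FPKM in the overexpression libraries and 156, 125 and 170 FPKM in the controls, without overlap (log2 change 0.50, SE 0.11, limma adjusted p = 0.0985). It was at 11.9%, 13.5% and 12.5% of MT-ATP6 in the overexpression libraries, against 11.7%, 11.8% and 11.5% in the controls.

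MTCO1P12, 98.6% identical to MT-CO1, had 11.9, 14.9 and 9.34 FPKM in the overexpression libraries and 13.3, 7.20 and 8.60 FPKM in the controls (log2 change 0.31, limma adjusted p = 0.607). MTND2P28, 98.4% identical to MT-ND2, had 2.17, 2.61 and 1.68 FPKM in the overexpression libraries and 2.50, 1.19 and 1.47 FPKM in the controls (0.23, limma adjusted p = 0.694). Both overlapped between groups. The changes were 0.53 and 0.43 without control replicate 1, and 0.13 and 0.09 without control replicate 2. Fragments of such copies and of the mitochondrial genes can be exchanged, so the levels of these rows and, to a small extent, of their mitochondrial counterparts are uncertain.

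The nuclear genes that express the mitochondrial genome did not pass the test. Of 65 such genes 64 were tested, 0 were called, and the median log2 change was 0.01. By limma's unadjusted p under 0.05, 1 of them was higher and 3 were lower, against 5.08% and 7.03% of all tested genes. Over the 64 tested genes neither count was above those shares. All 3 lower genes were among the 14 for mitochondrial DNA replication and nucleoids. Among transcription factors, the polymerase POLRMT stood at 14.4 ± 0.80 FPKM in the overexpression libraries and 15.8 ± 2.17 FPKM in the controls (limma adjusted p = 0.682). TFAM, which packages mitochondrial DNA and starts transcription, stood at 36.7 ± 1.56 and TFB2M, which opens the promoter, at 15.8 ± 0.563 FPKM in the overexpression libraries. Their controls stood at 38.0 ± 1.76 FPKM for TFAM and 14.2 ± 1.63 FPKM for TFB2M (SD, n = 3 each, limma adjusted p = 0.8 and 0.555). The elongation factor TEFM had a log2 change of 0.07 (limma adjusted p = 0.85). NRF1, a nuclear transcription factor for mitochondrial genes, had the smallest p of that list, with 10.5 ± 1.38 FPKM in the overexpression libraries and 8.91 ± 1.14 FPKM in the controls (limma adjusted p = 0.513).

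Of 14 estimates on the list for mitochondrial DNA replication and nucleoids 11 were below 0, against 6911 of all 13185 tested genes. The list had a median of -0.08, with 0 called. Its smallest p-values were those of the protease LONP1 and the helicase-nuclease DNA2. LONP1 stood at 40.5 ± 2.07 FPKM in the overexpression libraries and 49.8 ± 3.06 FPKM in the controls (limma adjusted p = 0.117), and DNA2 at 7.86 ± 0.522 FPKM in the overexpression libraries and 10.3 ± 0.731 FPKM in the controls (limma adjusted p = 0.153). Both had every overexpression library below every control, as had 3 of the 14 genes in all, against 10.4% of all tested genes.

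Of 35 tested genes for RNA processing, stability and decay 0 were called, and their median was 0.02. In 7 of the 35 every overexpression library lay above every control, against 7.61% of all tested genes. In 2 every overexpression library lay below every control, against 10.4% of all tested genes. LRPPRC and SLIRP had log2 changes of -0.04 and -0.02 (limma adjusted p = 0.883 and 0.952). The decay enzymes PNPT1, a nuclease, and SUPV3L1, a helicase, had 0.16 and 0.10 (limma adjusted p = 0.37 and 0.565). PNPT1 stood at 84.6 ± 3.77 FPKM in the overexpression libraries, against 75.6 ± 5.64 FPKM in the controls. MRM2, which methylates the large-subunit rRNA, had -0.14 (limma adjusted p = 0.417).

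The nuclear subunits of the same complexes had median differences near 0. Of 83 nuclear subunit genes 81 were tested and 0 called, with a median log2 change of -0.02. In complex I the median was 0.21 over the 7 mitochondrial and -0.02 over the 37 nuclear subunits. In complex III MT-CYB had 0.42 and the 9 nuclear subunits a median of -0.03. In complex IV the medians were 0.18 over the 3 mitochondrial and -0.05 over the 12 tested nuclear subunits, while the mitochondrial median of complex IV was 0.37 without control replicate 1 and 0.12 without control replicate 2. In complex V the medians were 0.51 over the 2 mitochondrial and 0.02 over the 19 nuclear ones. Complex II, which has no mitochondrial subunit, had a median of -0.02 over 4 genes.

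Of the 81 tested nuclear subunits 50 had estimates below 0, against 6911 of all 13185 tested genes. By limma's unadjusted p under 0.05, 5 were lower and 1 was higher, against 7.03% and 5.08% of all tested genes. The subunits with the smallest p were lower in complexes III and IV and in both directions in complexes I, II and V. NDUFB3 and NDUFV2 of complex I had -0.15 and 0.13 (limma adjusted p = 0.279 and 0.311), and CYC1 and UQCRC1 of complex III -0.07 and -0.03 (0.606 and 0.85). COX8A and COX7A2L of complex IV had -0.20 and -0.10 (limma adjusted p = 0.365 and 0.544), and ATP5PO and ATP5F1A of complex V -0.14 and 0.09 (0.307 and 0.528). SDHB and SDHA of complex II had -0.04 and 0.04 (limma adjusted p = 0.797 and 0.805).

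**Figure D5:**
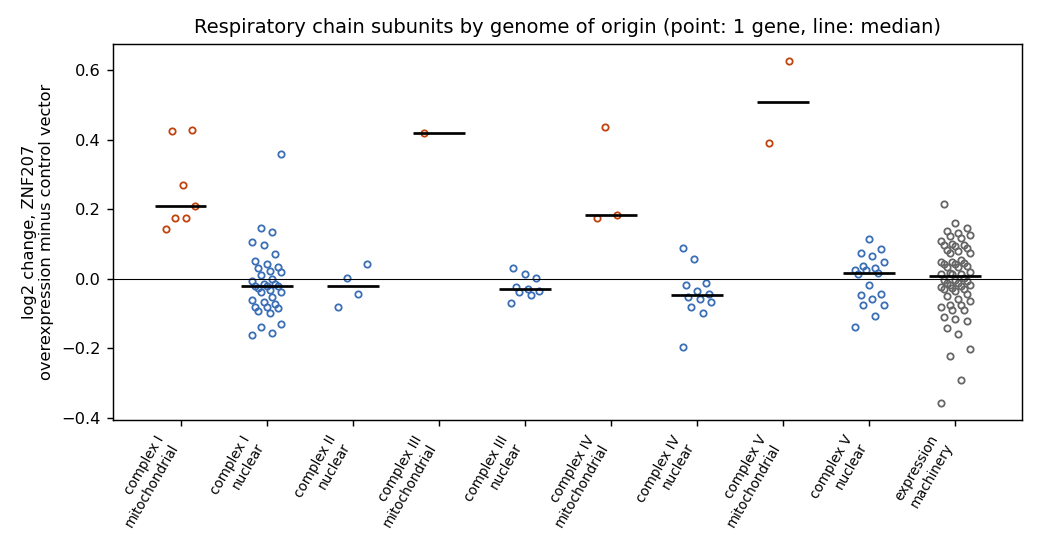
The log2 change, overexpression minus control, of each tested respiratory chain subunit gene, by complex and by genome of origin, with the nuclear expression machinery at the right and a line at each median. The mitochondrial medians lie between 0.18 and 0.51 and the nuclear medians between -0.05 and 0.02.

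Lists that reflect library composition were set beside these values. RNAs without a poly(A) tail summed to 113 to 154 FPKM in the overexpression libraries and 123 to 152 FPKM in the controls, and 13 of the 22 matched names were listed at 0 in all 6. Of the 6 tested, 0 passed, with the smallest p for the histone genes H2AC6 (log2 change 0.16, limma adjusted p = 0.337) and H3C2 (-0.51, limma adjusted p = 0.442). Nuclear-retained RNAs summed to 869 to 975 FPKM in the overexpression libraries and 865 to 1018 FPKM in the controls. Of the 4 tested, 0 passed, with the smallest p for OIP5-AS1 (-0.11, limma adjusted p = 0.602) and NEAT1 (-0.15, limma adjusted p = 0.654). Their part in the mitochondrial share was not tested.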

How the data were processed

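The authors deposited 1 table of FPKM values for the 6 libraries, with 1 column per library. The submitters' processing notes name hg38 and, as tools, RSEM 1.3.1, Bowtie2 and DESeq2 1.4.5, in no stated role. Annotation, library kit and strand: not given in the sources used here. Columns named 207 and NC were taken as ZNF207 construct and control vector, with the final digit as replicate number. A name with several rows kept the row with the highest mean. Read depth is unknown: at most 1.10% of low rows shared a ratio between 2 libraries, so whole reads were not recovered.

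Values were tested as log2(FPKM + 1), which understates changes of low genes, for the 13185 genes that reached 1 FPKM in 3 libraries or more. The test was limma 3.58.1 in R 4.3.3 (mean-variance trend, two-sided, Benjamini-Hochberg adjustment over all tested genes, threshold 0.05), tested on simulated data. Single values per library were compared by exact permutation. Coordinates, lengths and sequences come from GENCODE v29 on GRCh38. On the mitochondrial genome a deposited locus starts 1 base below the first gene that it covers. The 3 named nuclear copies carry a common deposited locus on chromosome 1, from 586070 to 859446. Copies were aligned with BLAST 2.17.0. The length of a name was the unweighted mean over its annotated transcripts. It was available for 55183 names, and only these entered the share of FPKM times length. Named are all 15 tested members, tRNA rows above 0, the 3 most abundant nuclear copies, ZNF207, 8 chosen expression factors and, in each list without a call, the 2 genes with the smallest p. Members, lists and tests were chosen with earlier results of these data known.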

Additional observations from a re-analysis of the deposited data

How the results depend on the processing

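The number of mitochondrial genes called was 0 in the main test and under 16 of 17 alternatives. With the replicate number as a block it was 6, all higher (MT-ATP8, MT-ND1, MT-ND2, MT-ATP6, MT-CO3 and MT-CYB, limma adjusted p 0.00976 to 0.0171), and 145 genes were called in all. That block also gave 1 call among expression machinery genes and 1 among nuclear copies, and none among nuclear subunits. Whether the numbers pair the samples is not known. Deviations of same-numbered libraries correlated at 0.14, 0.01 and 0.17, and those of unlike-numbered ones at -0.21 to 0.07. Overexpression replicates 1 and 3 correlated best with the control of their own number, and overexpression replicate 2 with control replicate 3.

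The count of all called genes was 28. It was 4 with no filter, 64 with the filter at an FPKM of 5, 18 with median-of-ratios scaling and 5 without a variance trend, and between 4 and 36 when 1 library was left out. The median of the protein genes ran from 0.21 to 0.39 when 1 library was left out, and the number of tested members higher at an unadjusted p under 0.05 from 7 to 11, against 3.4% to 6.57% of all tested genes in the same fits. Directions changed for MT-ND3 with quantile scaling (-0.0186) and for MT-ND6 without control replicate 2 (-0.0255). The ratio of MT-ND6 to heavy-strand mRNA was 0.0512 without overexpression replicate 3 and 0.0214 without control replicate 1, and ran from -0.39 to 0.05 when 1 library was left out. The cause was not tested. The rRNA ratio kept its direction under all 11 alternatives (-0.53 to -0.25). Unknown read depth and 3 libraries per group limit all of these values.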

Other observations

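MT-ND6 and the nuclear copies MTCO1P12 and MTND2P28 had the same highest pair of libraries and the same lowest one, a pattern noticed after the values were seen and not tested. Overexpression replicate 2 and control replicate 1 were the highest pair for all 3 and control replicate 2 the lowest, while the order within the pair and between overexpression replicate 3 and control replicate 3 differed. Overexpression replicates 1, 2 and 3 stood at 70.2, 78.0 and 49.5 FPKM for MT-ND6, and control replicates 1, 2 and 3 at 82.5, 46.2 and 52.6 FPKM. MTCO1P12 had 11.9, 14.9 and 9.34 FPKM in the overexpression libraries and 13.3, 7.20 and 8.60 FPKM in the controls, and MTND2P28 had 2.17, 2.61 and 1.68 FPKM in the overexpression libraries and 2.50, 1.19 and 1.47 FPKM in the controls. MT-ATP6 and its copy MTATP6P1 did not share that order: their highest library was overexpression replicate 3, at 1856 FPKM for MT-ATP6 and 232 FPKM for MTATP6P1. MT-CO1 and MT-CO3, with MT-CO2 and other genes between them on the same precursor, had a ratio of 3.03, 3.37 and 2.35 in the overexpression libraries and 4.37, 3.39 and 2.79 in the controls, which overlapped (exact permutation p = 0.4). MT-ATP6 over MT-CO3 lay between 1.12 and 1.16 in the overexpression libraries and between 1.16 and 1.19 in the controls. These groups nearly touched without overlap (exact permutation p = 0.1). MT-CO2 over MT-CO3 was 3.39, 3.17 and 3.02 in the overexpression libraries and 3.74, 4.11 and 3.57 in the controls. It did not overlap either (exact permutation p = 0.1). These ratios were also chosen after the values were seen.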
